A study of Capra hircus with 2 samples.

Results

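The miR-424 cluster is a group of miRNA genes that lie side by side on the X chromosome and whose mature miRNAs hold down the output of other genes. Every row of the deposited table named for miR-424, miR-322, miR-503, miR-542 or miR-450 was taken, which gave 6 arms of the 590 listed mature miRNAs. These were the 5p and the 3p arm of chi-miR-424, chi-miR-542 and chi-miR-450 (the prefix stands for Capra hircus and is left out from here on), and no row was named miR-322 or miR-503, which are therefore not analysed here. Small RNA was sequenced from natural killer (NK) cells of female goats (Capra hircus), with 1 library of uterine NK cells (uNK) and 1 library of NK cells from peripheral blood (pNK). The labels name no treatment, age, breed, genotype, pregnancy stage, number of animals or marker used for the separation. The columns of RPM (reads of a miRNA per 1000000 in its library) imply 30063449 reads in the pNK library and 31780925 in the uNK library.

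A miRNA precursor is a hairpin that is cut into a 5p and a 3p arm, of which one is usually kept in the silencing complex and the other mostly degraded. In human cells miR-424, called miR-322 in mouse and rat, and its neighbour miR-503 are known to repress cell cycle genes such as cyclin D1 and CDC25A, and miR-424 is known to be induced by low oxygen in endothelial cells. The 5p arm of miR-424 is known from human and mouse to share its seed, the stretch that finds targets, with miR-15, miR-16, miR-195 and miR-497. The 3p arm of human miR-542 is known to repress survivin, an inhibitor of apoptosis. In the goat gene table of assembly ARS1.2, MIR450, MIR542 and MIR424 follow each other on chromosome X with no other gene between them. The nearest protein-coding genes of the table are HPRT1, a purine salvage enzyme, on one side and, beyond a pseudogene, GPC3, a glypican of the cell surface, on the other.

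All 6 arms were higher in the uNK library by the call in the authors' deposited table. The same call was given to 38.0% of all listed miRNAs and to 54.1% of the 314 annotated ones. Summed over the 6 arms, the cluster stood at 191 RPM (5728 reads) in pNK and 2411.9 RPM (76652 reads) in uNK. That was a fold of 12.7, with an exact Clopper-Pearson 95% interval of 12.3 to 13.0. Such intervals cover counting error only, since 1 library per group leaves no spread between animals to set them against, and no p-value was computed. In separated cells read as bulk RNA, a change in how many cells of a type are present cannot be told apart from a change in RNA per cell. The fold depends on the scaling between libraries and was 7.97 when scaled to the median ratio of the 373 listed miRNAs with reads in both libraries and 21.2 with the TMM scaling of edgeR.

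miR-424-5p carried most of the cluster. It had 4412 reads in pNK and 64023 in uNK, or 146.76 against 2014.5 RPM. In uNK it ranked 21st by reads among the 590 listed miRNAs, and in pNK 90th. Its fold was 13.7 (13.3 to 14.2), and without it the summed fold of the other arms was 9.08. The opposite arm, miR-424-3p, was counted 119 times in pNK and 630 times in uNK, at 3.96 and 19.82 RPM. With a fold of 5.01 (4.11 to 6.14), it had the smallest fold of the 6 arms.

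miR-542-5p was the second most abundant arm of the cluster in both libraries. Its reads numbered 805 in pNK and 9361 in uNK (26.78 and 294.55 RPM), a fold of 11.0 (10.2 to 11.8). For miR-542-3p only 14 reads were found in pNK against 288 in uNK, or 0.47 and 9.06 RPM. The fold of this arm was the largest of the 6 at 19.5, but its interval reached from 11.4 to 36.0, because the pNK count was so low.

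miR-450-5p had 369 reads in pNK and 2208 in uNK, or 12.27 and 69.48 RPM. At 5.66 (5.07 to 6.34) its fold was below those of miR-424-5p and miR-542-5p. miR-450-3p was the rarest member, with 9 reads in pNK and a level of 0.30 RPM there against 4.47 RPM in uNK. Its fold of 14.9 had the widest interval relative to its size, 7.64 to 33.3. No arm had a count of 0 in either library.

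**Figure D1:**
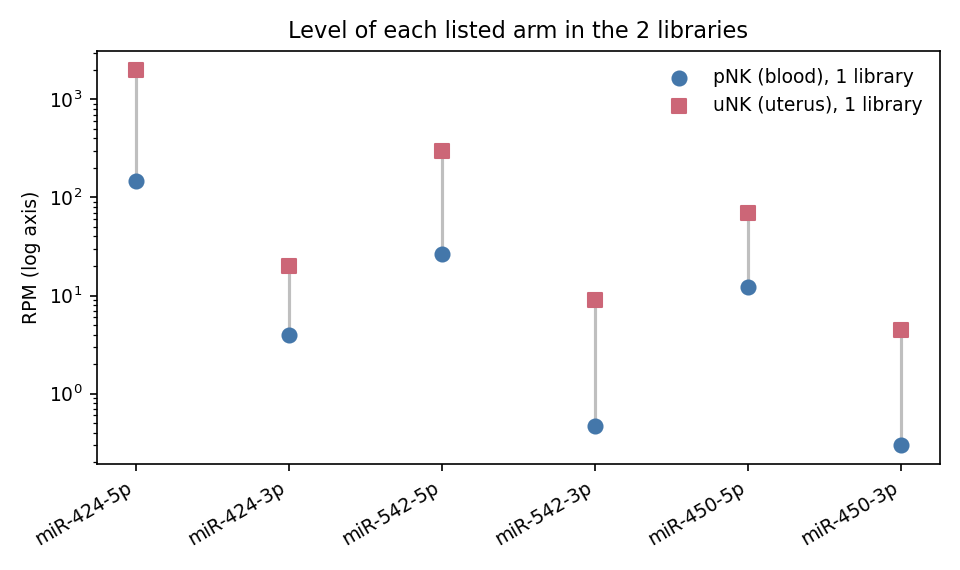
Level of each arm in RPM (log axis), with circles for the pNK library and squares for the uNK library, 1 library each and no error bar. Every square lies above its circle, and in both libraries the 5p arm lies above the 3p arm of the same precursor, from 2014.5 RPM for miR-424-5p in uNK down to 0.30 RPM for miR-450-3p in pNK.

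The authors' deposited table gives log2 ratios of 4.13 for miR-424-5p, 3.81 for miR-542-5p and 2.85 for miR-450-5p. For the 3p arms the authors' deposited table has 2.67 for miR-424, 4.63 for miR-542 and 4.25 for miR-450. These lie 0.35 above the log2 ratios of the RPM values, the same shift that scaling to the totals of the listed miRNAs gives. All 6 reached a deposited log2 ratio of 2, as did 46.8% of the annotated miRNAs. The q-values in the authors' deposited table were written as 0 for the 5p arms and were 2.53e-105, 3.04e-74 and 1.16e-36 for the 3p arms of miR-424, miR-542 and miR-450. They come from reads of 2 libraries, so they compare those libraries and not the tissues they came from.

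Among the 170 annotated miRNAs higher in uNK, the folds of the cluster were spread over the upper, middle and lower ranks. The median log2 RPM ratio was 3.62 over the 6 arms, 3.51 over those 170 miRNAs, 1.15 over all annotated and -2.55 over all listed miRNAs. By fold, miR-542-3p ranked 20th of the 170, miR-450-3p 45th, miR-424-5p 65th and miR-542-5p 90th. Lower in that order were miR-450-5p at 127th and miR-424-3p at 134th.

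The arms did not share a single fold within counting error. Of the 15 pairs of arms, 10 had a ratio of folds whose exact conditional 95% interval lay above 1, a comparison from which the scaling cancels. Each pair was taken with the higher fold first, and the intervals were not corrected for the number of pairs. How often pairs of other miRNAs separate in this way was not computed, so the count is not particular to the cluster. Down the order of folds, miR-542-3p and miR-450-3p could not be separated (ratio 1.30, interval 0.485 to 3.32), nor could miR-450-3p and miR-424-5p (1.09, 0.556 to 2.43). The fold of miR-424-5p was 1.25 times that of miR-542-5p (1.15 to 1.35). The fold of miR-542-5p in turn was 1.94 times that of miR-450-5p (1.70 to 2.22). At the lower end miR-450-5p and miR-424-3p were again not separated (1.13, 0.895 to 1.42). Adding 1 RPM to both libraries lowered the folds of the rare arms to 6.87 for miR-542-3p and 4.21 for miR-450-3p, which put both below miR-424-5p at 13.6.

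**Figure D2:**
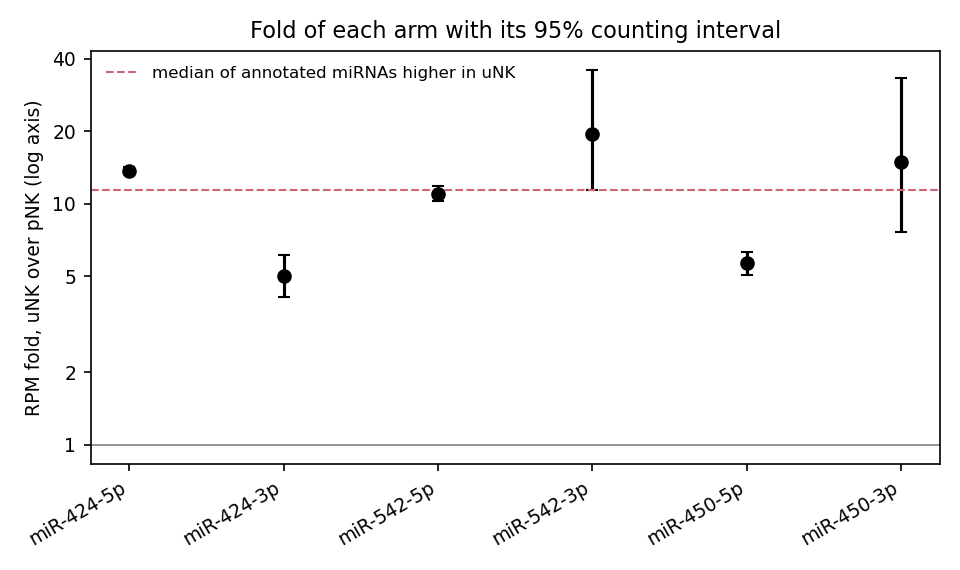
RPM fold of each arm, uNK over pNK (log axis), with exact 95% intervals for counting error as bars; the dashed line is the median fold of the 170 annotated miRNAs higher in uNK and the solid line marks equal levels. All 6 intervals lie above 1, from 5.01 for miR-424-3p to 19.5 for miR-542-3p, and the 3p arms of miR-542 and miR-450 have the widest intervals.

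The cluster reads were also divided differently among the arms in the 2 libraries. miR-424-5p took 77.0% of the cluster reads in pNK (75.9 to 78.1%) and 83.5% in uNK (83.3 to 83.8%). The share of miR-542-5p was 14.1% in pNK (13.2 to 14.98%) and 12.2% in uNK (12.0 to 12.4%). miR-450-5p went from 6.44% in pNK (5.82 to 7.11%) to 2.88% in uNK (2.76 to 3.001%). For every 100 reads of miR-424-5p there were thus 8.36 reads of miR-450-5p in pNK and 3.45 in uNK. The 3p arms together made up 2.48% of the cluster reads in pNK (2.09 to 2.92%) and 1.38% in uNK (1.30 to 1.47%). Reads of different miRNAs are captured with different efficiency during library preparation, so these shares are shares of reads and not of molecules.

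In all 3 precursors the 5p arm was the main one in both libraries, as in 60.6% of the 94 annotated precursors with both arms listed. Both arms were higher in uNK for all 3, as for 50.0% of the 94. The balance between the arms moved in different directions. miR-424 had 37.1 reads of the 5p arm per read of the 3p arm in pNK (30.9 to 44.9) and 102 in uNK (94.0 to 110.1). The ratio was therefore 2.74-fold higher in uNK (2.23 to 3.35), and the 3p share of the miR-424 reads was 2.63% in pNK and 0.974% in uNK.

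miR-450 went the other way, from 41.0 reads of 5p per read of 3p in pNK (21.4 to 90.4) to 15.5 in uNK (13.1 to 18.6). Its ratio was 2.64-fold lower in uNK (1.33 to 5.94), and its 3p share was 2.38% in pNK and 6.04% in uNK. miR-542 also had a lower ratio in uNK, at 32.5 (28.9 to 36.7) against 57.5 (34.1 to 105.7) in pNK. That difference was 1.77-fold, with an interval of 1.03 to 3.29 whose lower end lies close to 1. The pNK values of these 2 precursors rest on 9 and 14 reads of the 3p arm.

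On the log2 scale, with 0.5 reads added to each count, the arm ratio in uNK minus that in pNK was 1.46 for miR-424, -1.33 for miR-450 and -0.78 for miR-542. A difference of at least 1 log2 unit in either direction was found in 2 of the 3, against 57.4% of the 94 precursors. Over the 94 precursors the median difference was 0.01 and the median size, ignoring direction, was 1.11. By size, miR-424 ranked 28th of the 94, miR-450 40th and miR-542 64th. With 5 reads added in place of 0.5, the differences of the sparsely read precursors shrank to -0.83 for miR-450 and -0.42 for miR-542, and that of miR-424 was 1.501.

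**Figure D3:**
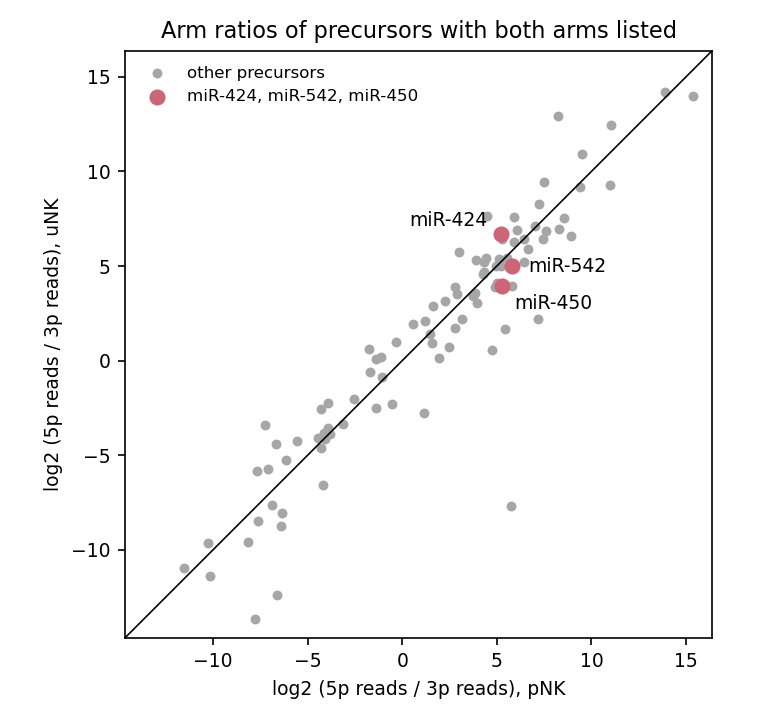
log2 ratio of 5p over 3p reads in uNK (vertical) against pNK (horizontal) for the 94 annotated precursors whose arms were both listed, each arm with 10 reads or more over the libraries, and with 0.5 reads added; the line marks equal ratios. miR-424 lies 1.46 above the line, while miR-542 and miR-450 lie 0.78 and 1.33 below it, inside the scatter of the other precursors.

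The 5p arms known by name to share the seed of miR-424-5p divided by direction. This list of names was chosen after the table was seen, and no sequences were compared. Beside miR-424-5p, the table held 5 of them. miR-497-5p and miR-195-5p, which are transcribed together and act on cell cycle genes, had folds of 14.01 (13.5 to 14.5) and 13.96 (13.1 to 14.9), next to 13.7 for miR-424-5p. miR-16a-5p, miR-16b-5p and miR-15a-5p, known in human as repressors of BCL2 and cyclins in blood cells, were 19.2-fold, 9.90-fold and 10.1-fold lower in uNK. Reads of such related miRNAs, miR-16a and miR-16b above all, may be assigned to one another, so their single values are uncertain.

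Taken as one pool of the 6 listed 5p arms, the reads of this family were made up differently in the 2 libraries. miR-424-5p supplied 0.464% of the pool in pNK (0.450 to 0.478%) and 32.9% in uNK (32.7 to 33.1%), where it was the largest single contributor. With miR-195-5p and miR-497-5p it reached 66.4% of the pool in uNK, against 0.928% in pNK. The pool itself was 5.16-fold smaller in uNK (5.13 to 5.19), at 6130.3 RPM against 31628.7 RPM in pNK. miR-15b and miR-503 are not in the pool, since their 5p arms were not listed.

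**Figure D4:**
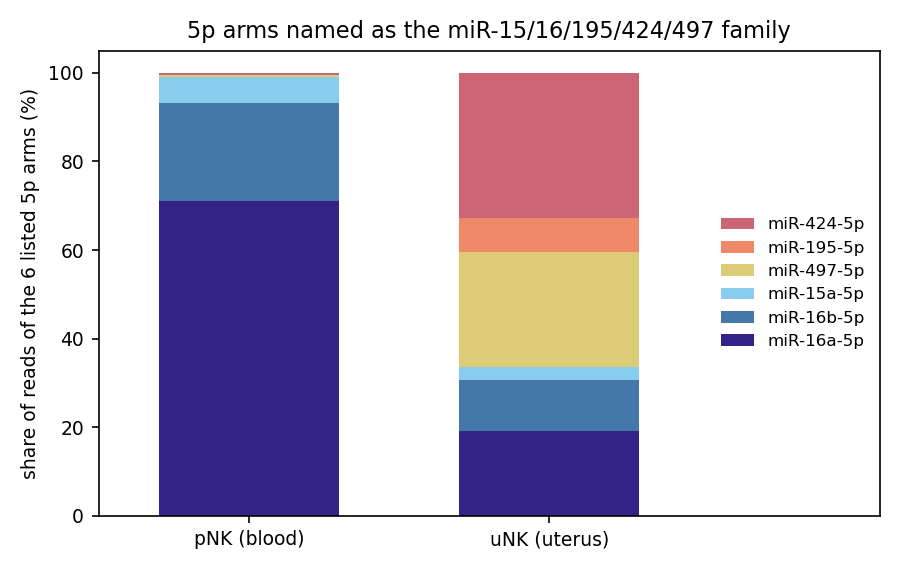
Share of each miRNA (%, stacked bars from 0 to 100) in the reads of the 6 listed 5p arms named as the miR-15, miR-16, miR-195, miR-424 and miR-497 family, in the pNK and the uNK library. miR-424-5p is a thin line at the top of the pNK bar (0.464%) and the largest segment of the uNK bar (32.9%).

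Most other listed miRNAs of the X chromosome were called in the opposite direction. The goat gene table placed 21 listed arms on X, 6 of the cluster and 15 others, and of the others 2 were higher and 13 lower in uNK, with a median log2 RPM ratio of -2.69. The share called higher was 13.3% of these 15, beside 38.0% of all listed and 54.1% of annotated miRNAs. The 21 arms carry only 14 precursor names, so they are not separate observations. By RPM summed over both libraries, a measure that favours miRNAs high in pNK, the 4 most abundant of the 15 were all lower. They were miR-223-3p, the main granulocyte and monocyte miRNA (1508-fold), miR-98-5p of the let-7 family (4.13-fold), and miR-222-3p (11.0-fold) and miR-221-3p (5.71-fold), which are linked to endothelium and proliferation. The exceptions in the direction of the cluster, named after their values were seen, were miR-374b-5p, 1.67-fold higher (1.64 to 1.71), and miR-362-3p, 2.38-fold higher (1.95 to 2.93). The other arm of that precursor, miR-362-5p, had more reads (3633 in pNK and 510 in uNK) and was 7.53-fold lower in uNK (6.86 to 8.28). In uNK alone miR-374b-5p was the most abundant of the 15, at 765 RPM. Both exceptions had folds below the 5.01 of miR-424-3p, the lowest in the cluster. A further 16 annotated arms had no chromosome in the gene table and were not counted, of which 4 were higher and 12 lower in uNK. Among them are miRNAs that are X-linked in human, with miR-188-5p, miR-105b-3p and both arms of miR-224 higher and the listed arms of miR-363, miR-18b, miR-20b and miR-106a lower. Of the higher ones, miR-105b-3p (2 reads in pNK, 13 in uNK) and miR-224-3p (14 and 60) were sparse. So were miR-106a-3p (14 and 1) and miR-18b-3p (11 and 0) of the lower ones.

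**Figure D5:**
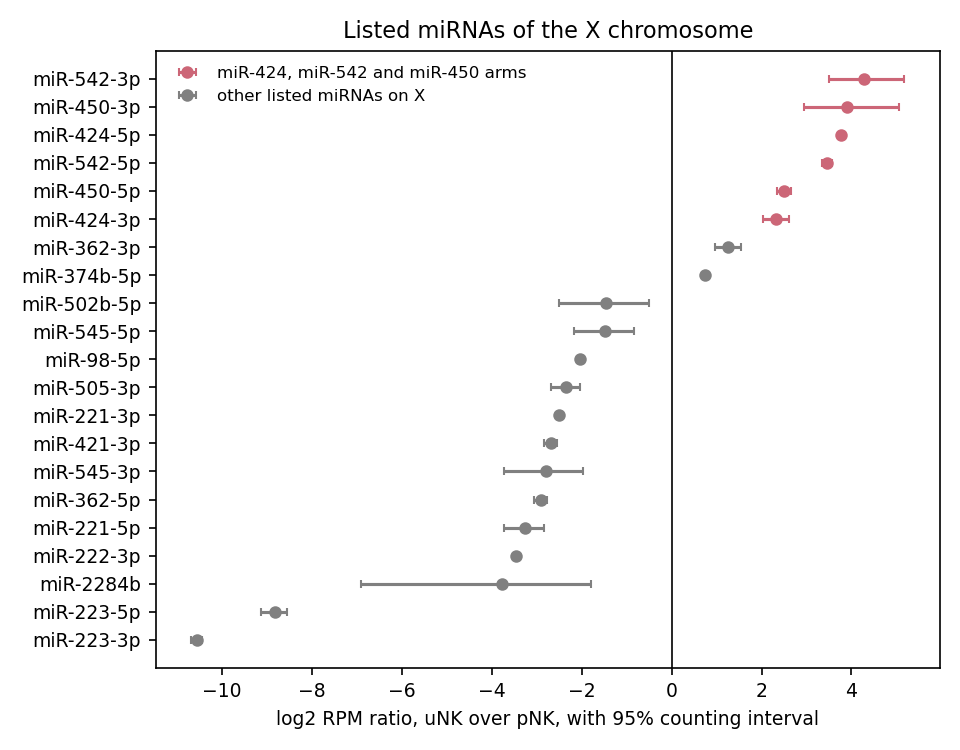
log2 RPM ratio, uNK over pNK, of the 21 listed arms placed on the goat X chromosome, with exact 95% intervals for counting error; coloured points are the 6 arms of the cluster and grey points the 15 others. The cluster holds the top of the order, 2 grey points lie right of 0 and 13 left of it, with miR-223-3p lowest at -10.56.

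By fold alone, each main arm had close neighbours among the annotated miRNAs. For miR-424-5p the nearest of 187 annotated non-members with at least 500 reads in the higher library were miR-493-5p (13.8-fold) and miR-376e-3p (13.8-fold), both of the imprinted DLK1-DIO3 cluster, and the muscle-enriched miR-133a-3p (13.6-fold). miR-542-5p stood beside the epithelial miR-429 (10.8-fold), miR-184 (11.2-fold) and miR-3959-3p (11.3-fold), which is also of the DLK1-DIO3 cluster. Closest to miR-450-5p were miR-126-5p of endothelium (5.64-fold), miR-409-3p of the same imprinted cluster (5.51-fold) and miR-365-3p (5.87-fold). Likeness here is the difference of log2 ratios between only 2 libraries, which many miRNAs can share.

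Markers of several cell types other than NK cells moved in the same direction as the cluster. The counts below stand beside 38.0% of all listed and 54.1% of annotated miRNAs called higher in uNK. Some lists hold both arms of a precursor, so their arms are not separate observations. All 13 listed arms of the stromal and smooth muscle list were higher in uNK, with a summed level of 12220.0 RPM in pNK and 186578.3 RPM in uNK, led by miR-143-3p (14.7-fold). All 5 epithelial arms were higher, summing to 257 and 3591.8 RPM, led by miR-200b (15.6-fold), whereas miR-205 was not listed. The 4 striated muscle miRNAs, all higher and led by miR-1 (12.0-fold), summed to 107 and 1329.0 RPM. Both arms of the endothelial miR-126, the only name on its list, were higher, at 1769.0 and 10554.6 RPM in sum, led by miR-126-3p (5.99-fold). miR-222-3p and miR-221-3p, which are linked to endothelium but were not on the list, were 11.0-fold and 5.71-fold lower in uNK. The 4 listed arms of the red cell miRNAs miR-451 and miR-144 were all called higher and summed to 3258.1 and 9816.7 RPM, led by miR-451-5p (3.01-fold), and miR-486 was not listed. Among these arms, miR-451-3p had only 6 reads in pNK and 16 in uNK, and its interval included 1 (2.52-fold, 0.938 to 7.87). miR-144-3p was 1.59-fold higher (1.30 to 1.95).

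In the other direction, both arms of the myeloid miR-223 were lower in uNK and summed to 28632.3 RPM in pNK but 21.1 RPM in uNK. By the same call, 38.0% of all listed and 54.1% of annotated miRNAs were higher in uNK and the rest lower. Of the lymphocyte list, which includes miRNAs of NK cells, all 4 listed arms were lower, summing to 20518.1 and 186 RPM. miR-150, a miRNA of mature lymphocytes and the most abundant by RPM summed over both libraries, was 592-fold lower at 32.19 RPM in uNK. In uNK alone miR-155-5p was the most abundant of the list, at 153.3 RPM, and was 9.55-fold lower (9.27 to 9.84). miR-181b-3p, named as the list's arm without uNK reads, had 8 reads in pNK and 0 in uNK. miR-155-3p was also sparse, with 60 reads in pNK and 2 in uNK. miR-142, miR-181a and the 5p arm of miR-181b were not listed and have no value here. The pNK count of miR-424-5p was 6.89% of its uNK count. Among the leaders of the lists higher in uNK, that share was 6.45% for the stromal miR-143-3p and 6.06% for the epithelial miR-200b. It was 7.89% for miR-1, 15.8% for miR-126-3p and 31.4% for miR-451-5p. Over the arms of the stromal list it ran from 1.56% to 13.2%. For miR-450-5p and miR-424-3p the pNK count was 16.7% and 18.9% of the uNK count, before any scaling for library size. The part of other cell types in the level of the cluster was not tested.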

How the data were processed

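The source was 1 table whose name gives DEGseq and a differential expression filter. It holds read counts per mature miRNA, per the file headers, and RPM values (reads scaled to 1000000 per library) that the authors computed, with 0 written as 0.001. It also holds the authors' log2 ratio (uNK to pNK) and the deposited p-values and q-values. Per the labels' protocols, Trizol was used to extract RNA. The aligner, the genome build and the miRNA reference set were not given in the sources used here. No absolute log2 ratio in the deposited table is under 1.01 and no q-value above 0.000815, so miRNAs that were not called are missing. Of the deposited q-values, 427 are below their p-values.

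Library totals were taken as counts over RPM of miRNAs with at least 5000 reads. The listed miRNAs took 47.5% of the pNK and 37.4% of the uNK reads. Folds are RPM ratios with exact Clopper-Pearson 95% intervals. Ratios of ratios have exact conditional intervals. Arm ratios needed 10 reads or more for each arm over the libraries. Intervals were checked on reads simulated with the counting error they assume, which tests the code and not their fit to these data. The simulated arm ratios had more 3p reads than miR-450 and miR-542 had in pNK. Reads carry no stated molecular identifiers, so intervals cover counting error only. Python 3.11.15, numpy 2.4.6, pandas 2.3.3, scipy 1.17.1, matplotlib 3.10.9 and edgeR 4.0.16 (R 4.3.3, for TMM only) were used.

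Members and lists were chosen with earlier results of these data known. All members were named, with the 3 nearest by fold to each main arm, the 4 most abundant X-linked miRNAs and each marker list's leader. Named after their values were seen were miR-374b-5p, both arms of miR-362, both arms of miR-155, miR-181b-3p, miR-451-3p and miR-144-3p. So were the miRNAs without a chromosome or named as seed relatives. Seed sharing could not be read from sequences and was taken from names. The gene table gave chromosomes only for names that matched. Alternatives were other scalings, pseudocounts, count filters and sums over fewer arms.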

Additional observations from a re-analysis of the deposited data

How the results depend on the processing

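No paired analysis was possible because uNK and pNK each had a single library, which also meant that none could be left out. All 6 arms stayed higher in uNK under the 3 other scalings, in the authors' deposited ratios, with filters of 10 and 100 reads, and with a deposited log2 ratio of at least 2. The filter behind the table and the small size of the shifts against the folds fixed this beforehand. The summed fold of the cluster was 16.1 when scaled to the listed totals, 7.97 with the median ratio of the 373 miRNAs with reads in both libraries, 21.2 with TMM and 9.08 without miR-424-5p. By construction these scalings shift every log2 ratio by 0.35, -0.67 and 0.74, and each rests on miRNAs called different. With only the main arm of each precursor it was 12.8. The authors' own scaling gave values for single arms but none for the sum. Of 36 alternative folds of single arms, 12 stayed within the counting interval and 24 left it, ranging from 1.79 (miR-450-3p with 5 RPM added) to 32.5 (miR-542-3p with TMM). Arm ratio differences kept their sign with 0 or 5 reads added. Depth limits the 3p arms of miR-542 and miR-450 in pNK.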
